A study of Drosophila melanogaster with 12 samples.

Results

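The data are 6 two-colour spotted arrays on which RNA of neural precursor cells from prospero mutant embryos of Drosophila melanogaster was hybridised together with RNA of whole embryos. They were chosen by title, as all arrays of the prospero mutant group set against the common reference, and make up 6 of the 12 arrays of the series. Per the labels, the cells were neuroblasts and ganglion mother cells of the ventral nerve cord, taken at embryonic stage 11 from animals homozygous for the allele pros17 (pros17/pros17) that had developed at 25 °C. Each sample held 50 to 100 lysed cells, and cDNA of their RNA was extended with terminal transferase, copied by PCR and labelled with random primers and Klenow enzyme. The reference was RNA of about 30 whole w1118 embryos of stages 10 to 12, for which the labels give no pros allele, amplified in the same manner. The cells were in Cy3 on replicates 1 to 3 and in Cy5 on replicates 4 to 6. The comparison asks which transcripts were more or less abundant in these cells, relative to all others, than in the whole embryo that contains this tissue among many. It holds no wildtype neural cells, so it does not show what the mutation changed, and strain, tissue, stage range and the amount of starting material differ together and cannot be told apart.

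Neuroblasts are the stem cells of the fly nerve cord. They divide unequally, renewing themselves and budding off ganglion mother cells, which divide once more into neurons or glia. Prospero is a homeodomain protein that the adaptor Miranda carries into the ganglion mother cell, where it enters the nucleus, represses genes of self-renewal and the cell cycle, and activates genes of differentiation. Embryos that lack it are known for ganglion mother cells that continue to express neuroblast genes and to divide.

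Values are log2 ratios of cells over reference after the median of each array was set to 0, so a ratio of 1 stands for a transcript 2-fold more abundant, relative to the array's median, in the cells. Exact zeros, read as places without a ratio, and values larger than 11 in either direction, read as spots lit in a single channel, were left out. This left 9010 to 9972 ratios of 14569 probes per array. That positive means higher in the cells is likely, but no label says so. Arrays of opposite dye orientation correlated positively over probes (r = 0.753 to 0.838 in 9 pairs, against 0.827 to 0.859 in 6 pairs of the same orientation), so their sign had been made common in the deposited columns, and genes of muscle, gut and epidermis had list medians below 0 on all 6 arrays. With the opposite reading, every ratio would change its sign and every gene called higher would be called lower. The reading rests on the sign of those list medians, so that sign is no separate result. Nor is the sign of any other result an independent check of the reading. Ratios spread less on replicates 5 and 6 (SD 1.5 and 1.7) than on the other 4 arrays (2.02 to 2.05). All cells were set against the reference RNA under 1 label, so the spread of the reference itself enters no p-value, and the labels do not say whether the samples came from separate embryos. The p-values therefore measure the spread between these samples, which may be technical. In such pooled RNA, more cells of a type and more RNA per cell cannot be told apart.

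Read as cells over reference, the 5 neural markers were all higher in the cells than in the whole embryo, on every array (limma one-sample test with Benjamini-Hochberg adjustment over 8714 rows, each a gene or an unnamed probe). Across all rows, 35.0% were called higher in this test. dpn, a bHLH repressor that maintains neuroblasts (chromosome arm 2R), had ratios from 3.56 to 4.36 with a median of 3.99. Its mean was 3.98 (SE 0.15, adjusted p = 2.8e-05), 15.7-fold, and it ranked 32nd from the top of all rows. ase, a proneural-type bHLH gene of neural precursors on the X chromosome, ran from 1.91 to 3.41 with a median of 2.75, and its mean was 2.65 (SE 0.15, adjusted p = 4.13e-05). CycE, the G1/S cyclin gene on 2L, ran from 1.43 to 2.53 with a median of 2.15, and its mean was 2.11 (SE 0.18, adjusted p = 0.000129). None of the 6 arrays came near 0 for these 3 genes. elav encodes an RNA-binding protein used as a marker of neurons and lies on the X chromosome. It ran from 1.57 to 2.84 with a median of 2.68, and its mean was 2.52 (SE 0.20, adjusted p = 9.84e-05), with replicate 6 lowest and the other 5 arrays between 2.52 and 2.84. mira, which encodes Miranda (3R), was the weakest of the 5, with a range of 0.57 to 1.72, a median of 1.47 and a mean of 1.24 (SE 0.22, adjusted p = 0.00242). Replicates 2 and 6 held its low values. In limma's treat, which asks whether a change exceeds 2-fold, dpn, ase, CycE and elav passed (adjusted p = 8.46e-05 to 0.00271) and mira did not (adjusted p = 0.359).

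The prospero transcript itself was lower in these cells than in the whole embryo on each of the 6 arrays. The ratios of pros (3R) ran from -3.88 to -2.16 with a median of -2.96. The mean was -3.04 (SE 0.24, limma adjusted p = 9.41e-05), or 8.23-fold lower, and 2.89 and 3.20 below 0 in Cy3 and Cy5. Rows called lower made up 36.7% of all rows. Where the probe lies relative to the lesion of pros17 is not given in the sources used here, so this level is no independent check of the genotype.

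**Figure D1:**
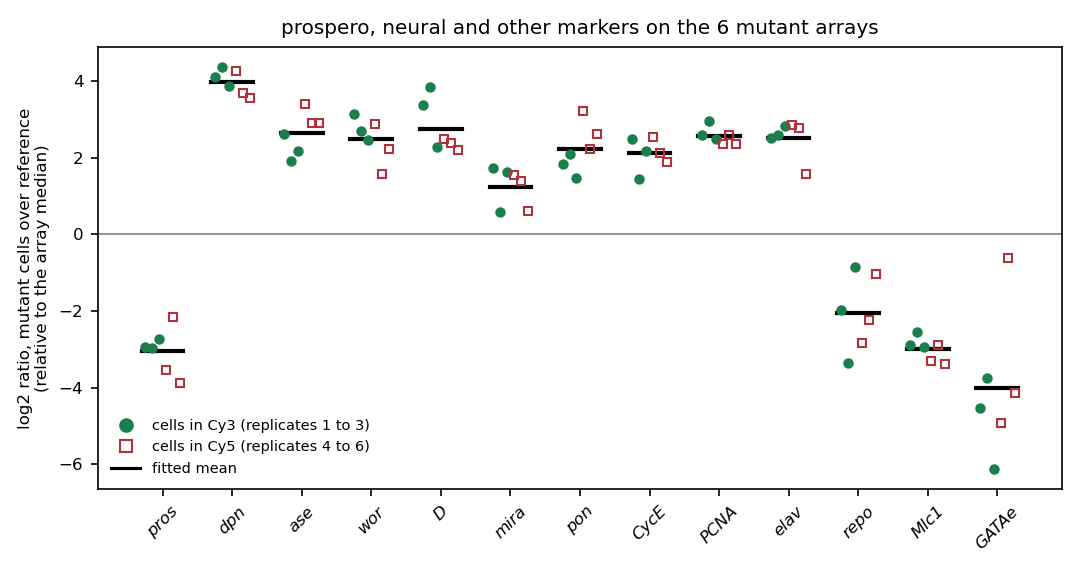
Log2 ratio of mutant cells over whole-embryo reference, relative to the array median, for prospero, 9 genes of neuroblasts, the cell cycle or neurons, and a glial (repo), a muscle (Mlc1) and a gut (GATAe) gene. Each point is 1 array, filled circles with the cells in Cy3 and open squares with the cells in Cy5, and bars are fitted means: the 9 neural and cycle genes lie above 0 on every array, and pros, repo, Mlc1 and GATAe lie below 0 on every array.

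Most of the transcriptome stood apart from the whole embryo. Of the 8714 rows, 3047 (35.0%) were higher and 3199 (36.7%) lower, 71.7% in either direction, and 5379 of these 6246 rows had the same sign on every array with a value. Past 2-fold by treat were 1112 higher (12.8%) and 1390 lower (16%). The median ratio of all rows was -0.05, with quartiles at -1.15 and 0.94, and the median SD over arrays was 0.54. No row (0%) differed between the dye orientations at an adjusted p under 0.05 in limma. At an unadjusted p under 0.05, 1558 of 8714 rows did, more than the share of 0.05 that chance alone would give. The absence of adjusted calls therefore does not show that ratios were free of dye differences. Of the 7366 rows with all 6 values, the means of the orientations had opposite signs in 982, of which 70 were among the called rows. In 203 rows, 16 of them called, all values of one orientation lay on one side of 0 and all values of the other on the opposite side. With the cells in Cy5 only, which includes both arrays of narrow spread, 586 rows passed 2-fold higher and 807 lower.

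**Figure D2:**
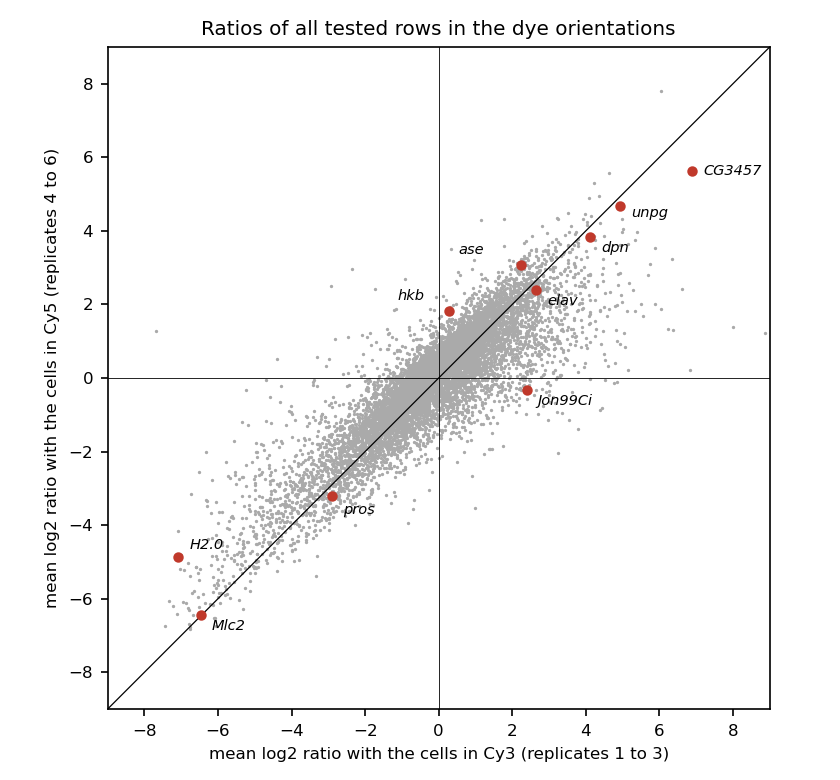
Mean log2 ratio of every tested row with the cells in Cy3 (horizontal) and in Cy5 (vertical), with 10 genes labelled in red. The rows run along the line of equal values, dpn, unpg and CG3457 at the upper and Mlc2 and H2.0 at the lower end in both orientations, while Jon99Ci is one of the rows whose means differ in sign.

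The largest positive ratios belonged to genes of several kinds, 17 in all by the rule for naming. That rule took the 15 named genes with the largest mean among those with 5 or 6 values of 1 sign, and uncharacterised genes if among the 5 largest. The highest of these 17 was the uncharacterised gene CG3457, from 4.97 to 8.33 with a mean of 6.26 (SE 0.42, adjusted p = 5.87e-05). It ranked 2nd from the top of all rows, since rows that did not meet the rule were passed over. Of the named genes with 6 values, unpg, a homeobox gene known from neuroblast lineages of the nerve cord, was highest. Its ratios ran from 3.84 to 6.30 with a median of 4.69, and its mean was 4.81 (SE 0.32, adjusted p = 5.7e-05), 28-fold. Genes with a known role in chromosome segregation or the nucleus were Ndc80 of the kinetochore (mean 4.49), mars, which encodes a spindle microtubule protein (4.39), bora, an activator of Aurora A kinase (4.27), Sse, the separase gene (4.18), Cdc23 of the anaphase-promoting complex (4.14) and east, which encodes a protein of the nuclear interior (4.65). bora was the most even of them, from 3.50 to 4.73 (SE 0.19, adjusted p = 2.8e-05). DNA metabolism was represented by mre11, a break repair nuclease gene (mean 4.54), and by Mcm5 and Orc2, which encode a replicative helicase subunit and an origin-binding protein (4.12 and 4.05). The rest were RNF220, a ubiquitin ligase gene (5.11), CG3679 (4.76), the Mediator gene MED16 (4.65), the receptor kinase gene Nrk (4.54), the transporter gene MFS9 (4.42) and Rb97D, which encodes an RNA-binding protein (4.29). All 17 passed 2-fold (treat adjusted p = 9.98e-05 to 0.0118), and RNF220, CG3679, MED16, east, Nrk, mre11, Ndc80, MFS9 and Sse did so on 5 ratios each. Nrk had the widest spread below its median, from 1.46 to a median of 5.84 and a highest value of 6.25.

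The largest negative ratios also belonged to genes of several kinds. Muscle genes among them were Mlc2 (myosin light chain; mean -6.46, range -7.87 to -5.28), up (troponin T; -6.30) and Mp20 (-6.16). H2.0, a homeobox gene of visceral mesoderm, had a mean of -5.97, with -7.07 in Cy3 and -4.86 in Cy5. Cuticle and epithelial genes included Osi15 of the Osiris family (-6.73) and Cpr51A of the cuticle proteins (-6.07). ImpE2 and ImpL1, named for their induction by ecdysone in imaginal discs, had means of -6.77 (range -8.27 to -5.43) and -6.25 (range -7.08 to -5.46). Enzymes and carriers were the sulfotransferase gene St3 (-6.56), the P450 gene Cyp4e1 (-6.03), Jhbp2, of the juvenile hormone binding protein type (-6.50), and UK114 (-6.69). The remaining genes were disco-r, a zinc finger gene (-6.22), the ubiquitin ligase gene LUBEL (-6.13), Msr-110 (-6.0) and the uncharacterised CG30413 (-7.08), CG14756 (-6.79) and CG42812 (-6.76). Each of these 18 genes had 6 ratios, all below -3, and passed 2-fold by treat (adjusted p = 5.53e-05 to 0.0024). No spot intensities were used here, so the signal over background behind so low a ratio is unknown.

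Cell cycle genes were higher in the mutant cells almost without exception. Of 23 tested replication and G1/S genes, 22 were higher, 21 of them past 2-fold, against 35.0% and 12.8% of all rows. Their median ratio was 2.56 against -0.05 for all rows. The list's median per array lay between 2.36 and 2.96. dpa, a subunit of the replicative helicase (Mcm4), ran from 2.77 to 3.41 with a median of 3.08, and its mean was 3.06 (SE 0.13, adjusted p = 2.8e-05). Orc4, of the origin recognition complex, ran from 2.58 to 4.52 (mean 3.45), and Sld5, of the GINS complex that completes the helicase, from 2.77 to 3.48 (mean 3.09). PCNA, the sliding clamp of DNA polymerase, was the most even of these, from 2.36 to 2.97 with a mean of 2.56 (SE 0.12, adjusted p = 3.13e-05). The exception in the list, named after its value was seen, was Mcm10, a replication initiation gene, whose mean of -0.42 was called lower. That call was lost when replicate 2, 3, 4, 5 or 6 was left out.

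All 22 tested genes of G2/M and mitosis were higher, 21 past 2-fold, with a median of 2.52 and list medians per array from 2.31 to 2.84. CycB3, a mitotic cyclin gene, had ratios from 3.17 to 3.65 and a mean of 3.38 (SE 0.12, adjusted p = 2.8e-05). The genes of 2 members of the chromosomal passenger complex lay close together. borr ran from 3.19 to 4.02 (mean 3.66) and Incenp from 3.10 to 4.14 (mean 3.52). Cap-D2, a condensin subunit gene that serves chromosome compaction, ran from 3.50 to 4.44 (mean 3.85). Mad1 of the spindle checkpoint, named after its value was seen, had the lowest mean of the list (0.87) and was the one member short of the 2-fold test. The reference embryos also hold dividing cells, so these are differences in level and not presence against absence.

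**Figure D3:**
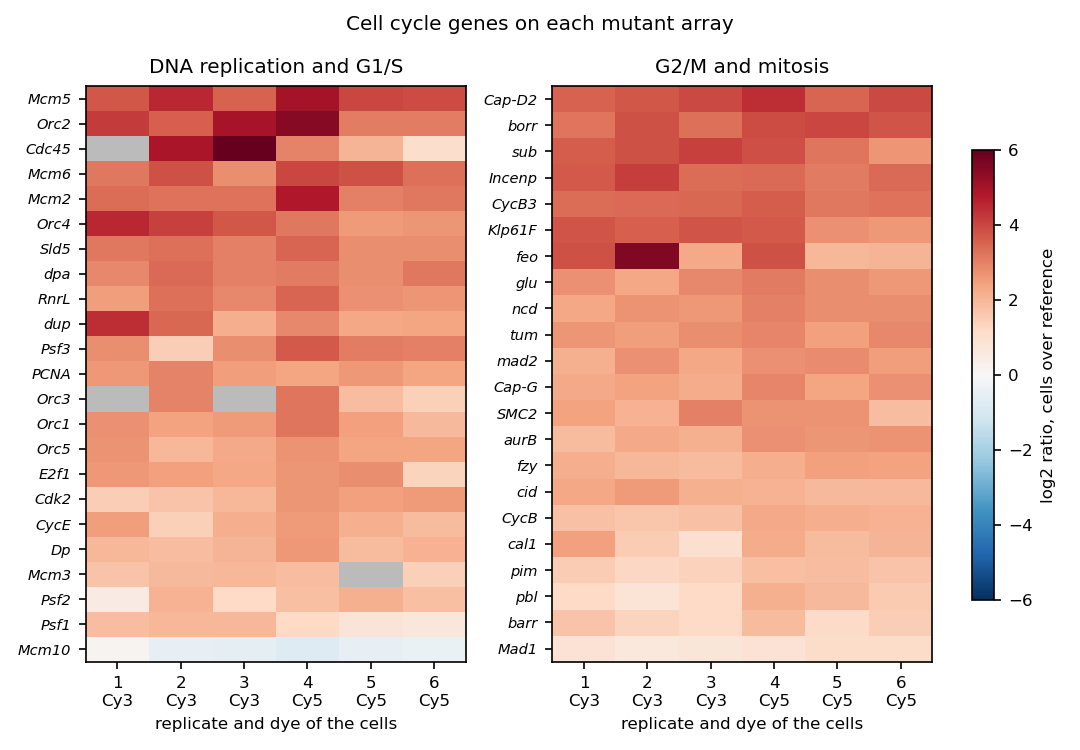
Log2 ratio of each tested cell cycle gene (rows, ordered by mean) on each mutant array (columns, with the dye of the cells). Red stands for higher and blue for lower in cells than in the reference, and grey for no ratio. Apart from Mcm10, the fields are red on every array that gave a ratio.

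Neuroblast transcription factors were mostly higher, with 7 of 10 called higher and 2 lower (median 1.35), against 35.0% and 36.7% of all rows. With the cells in Cy5 only, and also without replicates 5 and 6, 5 of 10 were called higher. Besides dpn and ase, D (Dichaete), a Sox gene of the early neuroectoderm, ran from 2.20 to 3.83 (mean 2.76, SE 0.21, adjusted p = 9.3e-05). wor (worniu), a Snail-family gene of neuroblasts, ran from 1.58 to 3.14 (mean 2.5, SE 0.20, adjusted p = 0.000103). The 2 lower members, named after their values were seen, were esg, also of the Snail family (mean -1.91), and the Sox gene Sox21b (-0.98). Proneural bHLH genes went the same way, with 6 of 7 higher, 0 lower and a median of 2.06. da, the common partner of proneural proteins, ran from 1.90 to 3.07 (mean 2.49, SE 0.14, adjusted p = 3.96e-05), and tap from 1.70 to 3.31 (mean 2.35). cato had a mean of 3.05 with a wider range, 1.75 to 4.48. Of the genes of the achaete-scute complex, ac had 5 ratios from 0.67 to 3.49 (mean 2.06, adjusted p = 0.00204), and l(1)sc had a mean of 1.45 (adjusted p = 0.0068) that did not pass 2-fold. emc, an inhibitor of proneural proteins, had a mean of 0.65 (adjusted p = 0.0213) and values on both sides of 0, from -0.10 to 1.57. Its call was lost without replicate 1, 4 or 5 (adjusted p = 0.0506 to 0.0634), and with the cells in Cy5 only 3 of 6 tested genes of the list were called higher.

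Genes of asymmetric division did not move as a block. Of 15 tested genes 6 were higher and 4 lower, with a median of 0.33, and these shares lie near those called among all rows. pon, a partner of Numb, ran from 1.46 to 3.21 (mean 2.24, SE 0.17, adjusted p = 9.24e-05) and stau, an RNA-binding cargo of Miranda, from 0.45 to 1.68 (mean 1.01, adjusted p = 0.00153). scrib, a basolateral polarity gene, had a mean of 2.22 (adjusted p = 0.00247), with 4.36 on replicate 4 and 1.47 to 2.36 on the other 5 arrays. The lower members, named after their values were seen, were the apical polarity genes baz, par-6 and aPKC (means -0.47, -0.72 and -1.38) and l(2)gl (-0.79). No member was called lower with the cells in Cy5 only, and 2 were without replicates 5 and 6.

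Notch pathway genes were called higher in 9 of 15 cases and lower in 3 (median 1.03), against 35.0% and 36.7% of all rows. The higher ones included targets of Notch in the Enhancer of split complex. E(spl)mdelta-HLH ran from 2.10 to 3.23 (mean 2.64, SE 0.15, adjusted p = 4.26e-05), E(spl)m7-HLH from 1.0 to 1.94 (mean 1.5), and the Bearded-family gene E(spl)m4-BFM from 1.82 to 4.13 (mean 3.0). Psn, the gene of the presenilin that cleaves Notch, ran from 1.11 to 1.97 (mean 1.58, adjusted p = 8.85e-05). The 3 lower members, named after their values were seen, were mam, a co-activator gene (mean -2.07), fng, a modifier of the receptor (-2.10), and E(spl)m6-BFM (-1.35).

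Temporal factors, which neuroblasts express in sequence, differed from one another. pdm2, a POU gene of the middle of the sequence, had 5 ratios from 2.15 to 5.84 (mean 3.89, SE 0.35, adjusted p = 0.000323), all above 0, with 4.94 in Cy3 and 2.85 in Cy5. cas (castor), a zinc finger gene of the late part, ran from 0.81 to 2.26 (mean 1.65, adjusted p = 0.000611). Kr, an early factor, lay on both sides of 0, from -0.37 to 1.14, with a mean of 0.24 (adjusted p = 0.314). svp, a nuclear receptor gene, had a mean of -0.86 (adjusted p = 0.0265), which rests on 2 probes that disagree, with means of -1.86 and 0.13. Its call was lost without replicate 2, 3, 5 or 6 (adjusted p = 0.0582 to 0.0780), and with the probe of most values its ratio was 0.13. In this list of 5 tested genes 2 were higher and 1 lower, near the 35.0% and 36.7% of all rows.

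Genes that pattern the neuroectoderm in columns and rows gave 4 higher and 2 lower of 8, near the 35.0% and 36.7% of all rows. gsb, a Pax gene of row 5 neuroblasts, was the clearest, from 2.62 to 3.53 with a median of 3.13 and a mean of 3.07 (SE 0.13, adjusted p = 2.8e-05). It was the one member past 2-fold. mirr and Dr, homeobox genes, had means of 0.84 (adjusted p = 0.00952) and 0.65 (adjusted p = 0.0241), and hkb a mean of 1.05 (adjusted p = 0.0361) with a lowest value of -1.15. hkb lost its call without replicate 1, 3, 5 or 6 (adjusted p = 0.0734 to 0.103) and Dr without replicate 1 or 2 (0.0626 to 0.0688). With the cells in Cy3 only, the ratio of hkb was 0.28 (adjusted p = 0.662). Without replicate 1, 2 genes of 7 were called higher. odd and ptc, a segmentation gene and the Hedgehog receptor gene, were lower, with means of -1.30 (range -2.07 to -0.84) and -1.03 (range -1.75 to -0.37). Of the Hox genes, 4 were tested. Scr (range -5.72 to -1.4, mean -4.18, adjusted p = 0.000406) and Dfd (range -6.34 to -1.69, mean -3.76, adjusted p = 0.00142), which act in the head and first thoracic segment, were lower on every array. pb had 4 ratios from -2.21 to -0.17 (mean -1.30, adjusted p = 0.0698). Antp, a thoracic Hox gene, ran from -0.51 to 1.79 (mean 0.79, adjusted p = 0.0605). It passed without replicate 2 (adjusted p = 0.0225) or 4 (adjusted p = 0.0292), and its 3 probes had means from -0.46 to 3.43.

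**Figure D4:**
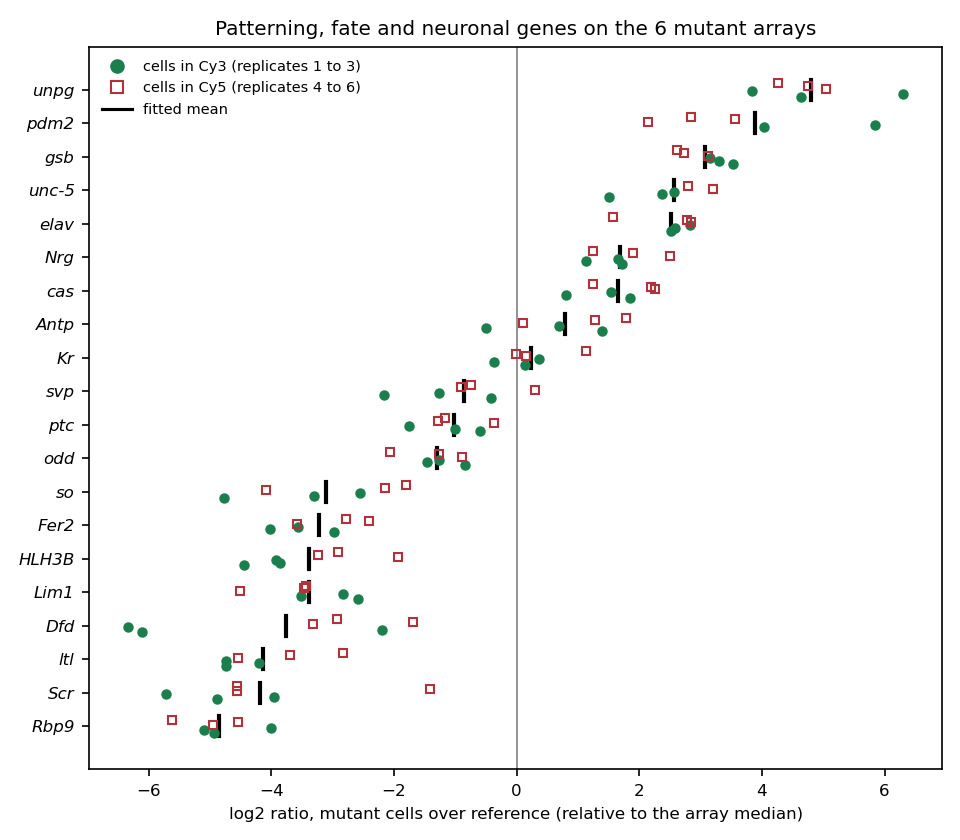
Log2 ratio on each mutant array for 20 patterning, fate, neuronal and glial genes, ordered by fitted mean (bars), with circles for the cells in Cy3 and squares for the cells in Cy5. unpg, pdm2, gsb, unc-5 and elav lie above 1.5 on every array with a ratio, Kr, svp and Antp cross 0, and the genes from so down to Rbp9 lie below -1.3 on every array.

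Genes of mature neurons were lower more often than higher, in contrast to elav. Of 15 tested genes 9 were lower and 4 higher (median -0.86), against 36.7% lower and 35.0% higher among all rows. The median per array lay between -1.66 and 0.02. Rbp9, an elav relative of differentiated neurons, ran from -5.62 to -4.01 with a median of -4.94, and its mean was -4.86 (SE 0.21, adjusted p = 2.8e-05), 29-fold lower. Ace, the acetylcholinesterase gene, had 5 ratios from -3.05 to -1.46 (mean -2.35, SE 0.29, adjusted p = 0.00103). Nrg, which encodes the adhesion protein neuroglian, went with elav, from 1.13 to 2.5 (mean 1.69, adjusted p = 0.000419). Nrg is also made outside the nervous system. With one orientation alone 5 (Cy3, of 13 tested) and 4 (Cy5, of 11 tested) genes of the list were called lower. These shares were near those of all rows in the same fits, 2589 of 7907 and 2304 of 8063.

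Transcription factors of ganglion mother cells and neurons gave 11 lower and 3 higher of 20 tested (median -0.93), 6 past 2-fold lower and none past 2-fold higher. Among all rows 36.7% were lower and 35.0% higher, with 16% past 2-fold lower. Many of them also act in other tissues, so the reference holds their transcripts from elsewhere too. Lim1, a LIM homeobox gene, ran from -4.50 to -2.59 with a mean of -3.39 (SE 0.21, adjusted p = 4.63e-05). The bHLH genes HLH3B and Fer2 had ranges of -4.45 to -1.93 (mean -3.38) and -4.02 to -2.40 (mean -3.22). so, a Six-family gene of the visual system, ran from -4.77 to -1.80 (mean -3.11, adjusted p = 0.000653). None of the 6 arrays gave a positive ratio for these 4 genes. The 3 higher members, named after their values were seen, were tup (mean 2.95), zfh2 (1.98) and jumu (1.23). Without replicates 5 and 6, 7 members of 19 were called lower, near the share of all rows in that fit (2459 of 7820). Without replicate 5 alone the median was -0.50.

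Axon guidance and neural adhesion genes were split, with 6 higher and 5 lower of 17 (median 0.48), near the shares called among all rows. unc-5, a Netrin receptor gene, had 5 ratios from 1.51 to 3.19 (mean 2.57, SE 0.21, adjusted p = 0.000245), and Nrt, which encodes the adhesion protein neurotactin, ran from 0.76 to 1.45 (mean 1.09, adjusted p = 0.000607). Ptp99A, a receptor phosphatase gene, and PlexB, a Semaphorin receptor gene, had means of -1.24 and -1.36, and each lay below 0 on all arrays. The median of the list was -0.41 with the cells in Cy5 only.

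Glial genes were lower in 4 of 9 cases, near the 36.7% of all rows, and higher in 1, or in 2 without replicate 5 (median -0.66). repo, the homeodomain gene of lateral glia, ran from -3.36 to -0.85 with a median of -2.11, and its mean was -2.05 (SE 0.37, adjusted p = 0.00293). ltl had a mean of -4.13 (range -4.74 to -2.83). htl, an FGF receptor gene that also acts in mesoderm, had a mean of -2.34, and nrv2, a sodium pump subunit gene, one of -0.66 (adjusted p = 0.00902). The call of nrv2 was lost with the cells in Cy5 only (ratio -0.34, adjusted p = 0.173). wrapper, a gene of midline glia, went the other way, from 0.97 to 2.81 (mean 1.71, SE 0.26, adjusted p = 0.00131). The other tested midline gene, comm, had a mean of -0.78 (adjusted p = 0.0247) and lost its call without replicate 2, 3, 5 or 6 (adjusted p = 0.0653 to 0.0734).

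In the 2 lists of chromatin genes tested, more members were called higher than lower, against 35.0% higher and 36.7% lower among all rows. Of 7 tested subunits of the Brahma remodelling complex, 6 were higher and 0 lower (median 2.23). Bap170 and polybromo, which mark the PBAP form of the complex, ran from 2.44 to 2.88 (mean 2.76, SE 0.12, adjusted p = 2.8e-05) and from 1.97 to 2.44 (mean 2.25). The core subunits Snr1 and mor had means of 2.23 and 2.26. brm, the ATPase, had a smaller mean of 1.15 (adjusted p = 0.000318), and Bap60 had a mean of 0.63 (adjusted p = 0.00652). Bap60 lost its call with the cells in Cy3 only (ratio 0.22, adjusted p = 0.327), and its mean in Cy5 was 1.03. osa, which marks the BAP form and was named after its value was seen, had a mean of 0.06 and was not called. Polycomb group genes gave 7 higher, 0 lower and 4 not called of 11 (median 0.87). esc, of the complex that methylates histone H3, led with a range of 2.63 to 3.81 (mean 3.05, SE 0.18, adjusted p = 4.16e-05). Pcl, of the same complex, had a mean of 1.81, Asx, of a histone deubiquitinase, one of 1.23, and phol, a DNA-binding member, one of 0.87 (adjusted p = 0.00116). The call of Asx was lost with the cells in Cy5 only (ratio 0.64, adjusted p = 0.059). Only esc and Pcl of this list passed 2-fold.

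Splicing genes were higher in 18 of 19 cases, 13 past 2-fold, with a median of 1.59. Of all rows 35.0% were higher and 12.8% past 2-fold higher. SmD3, of the Sm ring of the snRNPs, ran from 1.91 to 3.27 (mean 2.63, SE 0.13, adjusted p = 3.23e-05). Prp19 had a mean of 2.24, U2af38, which reads the 3' splice site, one of 2.31, and the SR gene SF2 one of 1.78. SF2 differed between orientations, with 1.26 in Cy3 and 2.31 in Cy5. Of 28 tested proteasome subunit genes 21 were higher and 1 lower (median 0.74), 5 past 2-fold. The lower call was lost with any 1 array left out. Rpn13, Rpt4, Rpn3 and Rpn7, of the regulatory particle, had means of 2.26, 1.89, 1.55 and 1.27, and the ratios of Rpn3 were the most even, from 1.42 to 1.72.

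Nucleolar genes gave 3 higher and 4 lower of 11 (median -0.21), near the 35.0% and 36.7% of all rows. Non1, a nucleolar GTPase gene, had a mean of 1.57 (range 0.98 to 1.96), while Nopp140 and Ns1, the nucleostemin gene, had means of -2.28 (range -3.03 to -1.68) and -1.61 (range -2.10 to -0.97), and NHP2 one of -0.86. Cytosolic ribosomal protein genes had a median of 0.11, with 12 higher, 8 lower and 17 not called of 37. The share of higher genes was near the 35.0% of all rows, and that of lower genes was under the 36.7%. The split moved with the dye: 3 of 35 were higher and 9 lower with the cells in Cy3 only. In Cy5 only, 10 of 36 were higher and 5 lower. RpS5b (mean 1.58), RpL27 (-1.53) and RpL29 (-1.54) were the clearest. RpS12 had a mean of -2.54, from probes whose means ran from -4.69 to 0.19. Without replicate 3 or replicate 4, 5 members were lower in place of 8. Whether probes of related genes share signal was not tested. Aminoacyl-tRNA synthetase genes were lower in 5 and higher in 2 of 9 cases (median -0.38), against 36.7% and 35.0% of all rows. Only 1 was higher without replicate 1, 2, 4 or 5. With the cells in Cy5 only, and without replicates 5 and 6, 3 of 9 were lower. These shares were near those of all rows in the same fits, 2304 of 8063 and 2459 of 7820. IleRS, GluProRS and LeuRS had means of -1.86, -1.92 and -1.41, and SerRS had 0.74 (adjusted p = 0.00238).

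Nuclear genes of mitochondria were lower more often than higher. Of 67 mitochondrial ribosomal protein genes 39 were lower and 13 higher (median -0.51), and of 59 oxidative phosphorylation genes 36 were lower and 9 higher (median -0.52), against 36.7% lower and 35.0% higher among all rows. Both list medians were below 0 on all 6 arrays, from -0.82 to -0.13 and from -0.93 to -0.12, with replicates 5 and 6 nearest to 0. mRpL32 ran from -2.40 to -1.63 (mean -2.15, SE 0.13, adjusted p = 4.76e-05), mRpL28 had a mean of -1.67, mRpL23 one of -1.65 and mRpL20 one of -3.20. Of the respiratory chain, Cyt-c1 of complex III ran from -3.0 to -1.99 (mean -2.54, SE 0.15, adjusted p = 4.53e-05), and UQCR-6.4 of the same complex and ND-MLRQ had means of -2.36 and -2.32. ND-B12, a complex I subunit gene, was higher, from 1.19 to 1.94 (mean 1.60). With the cells in Cy5 only, 20 of 65 and 13 of 58 members were called lower, against 2304 of 8063 rows in that fit. The oxidative phosphorylation genes thus held no excess of lower calls over all rows there, and the share of mitochondrial ribosomal genes was near that of all rows. With the cells in Cy3 only, 37 of 67 and 32 of 56 members were called lower, against 2589 of 7907 rows. The medians of the 2 lists were -0.29 and -0.31 with the cells in Cy5 only, and -0.82 and -0.81 with the cells in Cy3 only. Mitochondrial chaperone genes were also lower. Hsp60A had a mean of -3.44 (SE 0.23, adjusted p = 5.47e-05) and Hsc70-5 one of -3.03 (SE 0.13, adjusted p = 2.8e-05). Of the other heat shock genes, Hsp27 had a mean of 1.14, and Hsc70-3, the chaperone gene of the endoplasmic reticulum, one of -1.52, with -0.28 on replicate 5 and at most -1.5 on the other 5 arrays. In all 5 of 8 heat shock genes were lower and 3 higher, against 36.7% and 35.0% of all rows, and 3 were lower without replicate 4.

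Apoptosis genes were mostly not called, with 1 higher, or 2 without replicate 5, and 3 lower of 9 (median 0.02). Among all rows 35.0% were higher and 36.7% lower, so the share of lower genes was near that of all rows. Dcp-1, an effector caspase gene, was higher, from 1.64 to 3.74 (mean 2.52, SE 0.32, adjusted p = 0.000648), and Debcl, a Bcl-2 family gene, was lower, from -3.45 to -2.14 (mean -2.85, SE 0.20, adjusted p = 6.7e-05). Diap2 and skl had means of -0.92 and -0.75. Diap2 lost its call with the cells in Cy5 only (adjusted p = 0.142) and skl with the cells in Cy3 only (adjusted p = 0.055).

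Markers of other tissues differed between lists. The shares of all rows for comparison were 36.7% lower and 35.0% higher. The sign of the muscle, gut and epidermal medians served to read the direction of the ratios, so that sign is no separate result. Of 11 tested mesoderm and muscle genes 9 were lower and 1 higher (median -2.78, per array from -3.37 to -2.15), with 0 higher without replicate 1 or 5 and 2 without replicate 2. Mlc1 ran from -3.39 to -2.55 (mean -3.0), and Actn, the alpha-actinin gene, had a mean of -2.78. Epidermal, tracheal and amnioserosa genes were lower in 13 of 18 cases and higher in 2 (median -1.64, per array from -2.20 to -1.28), with 4 higher without replicate 3. serp, a chitin deacetylase gene, had a mean of -5.14 and tyn one of -1.92. The T-box genes Doc3 and Doc2 had means of -5.22 and -3.71, with a value of -2.96 for Doc3 on replicate 6 and at most -5.13 on the other 5 arrays. Of 6 gut and yolk genes 4 were lower and 2 higher (median -2.59). With 1 array left out, 4 or 5 genes could be tested, of which 4 were lower and 1 higher, or 0 higher without replicate 2 or 4, and the median lay between -3.81 and -3.48. The endodermal GATA gene GATAe ran from -6.12 to -0.63 (mean -4.01), cad from -5.53 to -2.15 (mean -3.81) and the trypsin gene lambdaTry from -4.51 to -3.01 (mean -3.59), and fkh had a mean of -1.60. The 2 higher ones, Alp4 and Jon99Ci, had 4 ratios each, and those of Jon99Ci ran from -0.64 to 2.57. Its call was lost in a fit without the dye term (adjusted p = 0.184). The salivary gland genes PH4alphaSG1 and sage had means of -4.98 and -2.06, and of the germline genes aub had 0.96 (adjusted p = 0.00236) and ovo 0.10 (adjusted p = 0.761).

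Hemocyte and fat body genes lay on both sides of 0. Of 11 tested genes 4 were higher and 5 lower (median 0.37), near the 35.0% and 36.7% of all rows, and the list median turned to -0.45 with the cells in Cy5 only. It was -0.47 with 6 of 6 values required. The median per array lay between -0.54 and 0.70 and was above 0 on replicate 2 only. Without replicate 2 or replicate 4, 2 members were higher. SPARC, which encodes a secreted matrix protein of hemocytes, ran from 1.78 to 2.56 (mean 2.04, SE 0.14, adjusted p = 5.76e-05). Genes of the basement membrane were lower, LanB2 with -1.94 and LanB1 with -1.79, and Tig, which encodes tiggrin, an integrin ligand, had a mean of -2.53. Whether RNA of hemocytes was present in the cell samples was not tested.

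**Figure D5:**
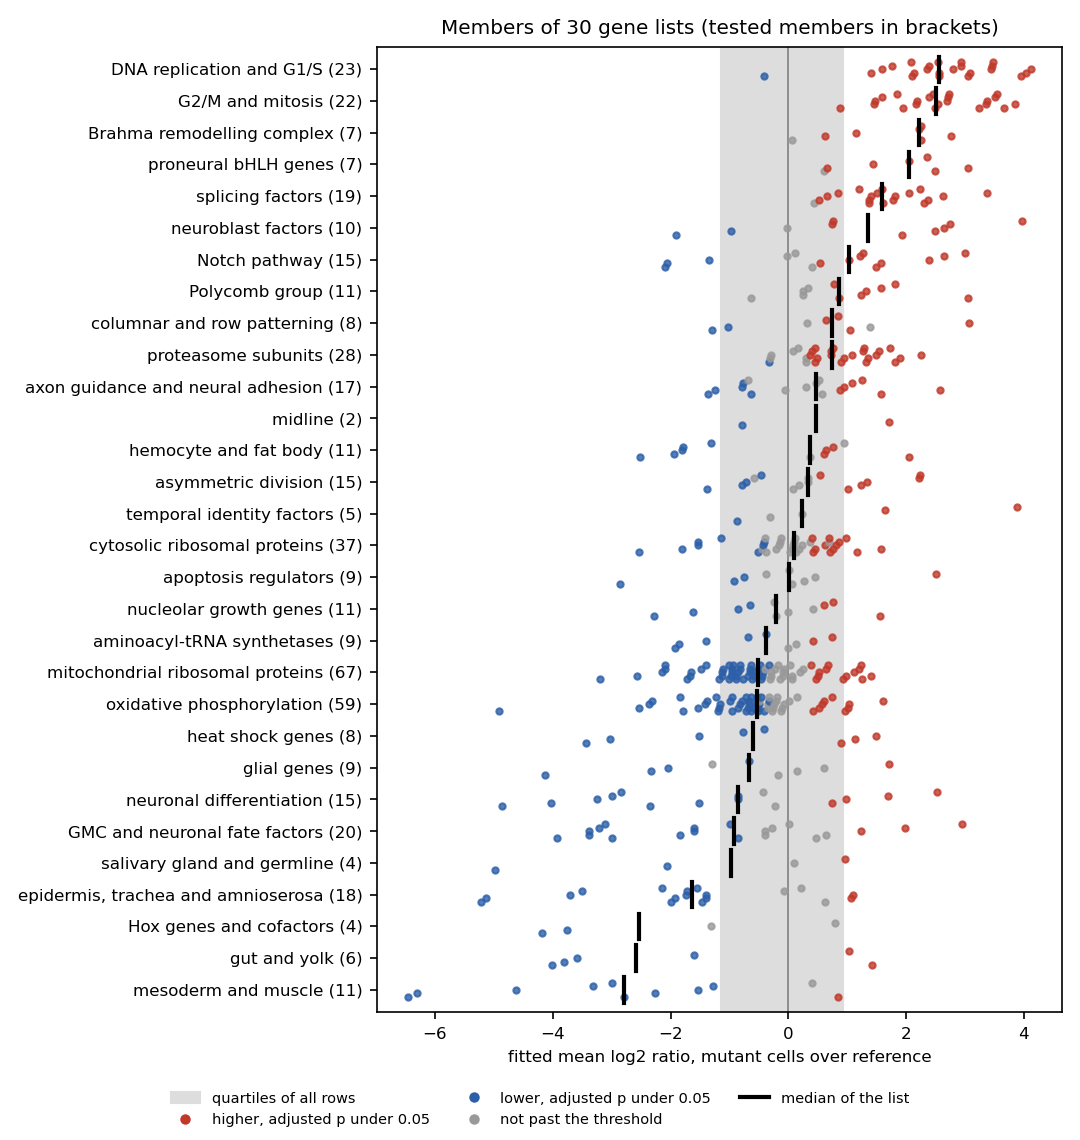
Fitted mean log2 ratio of every tested member of 30 gene lists, ordered by the list median (black bars), in red where called higher, blue where called lower and grey where not called at an adjusted p of 0.05. The grey band spans the quartiles of all rows, -1.15 to 0.94. The medians of the 2 cell cycle lists lie highest, at 2.56 and 2.52, and that of mesoderm and muscle lies lowest, at -2.78.

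Spots with signal in 1 channel only carry no ratio and stand outside every count above. Signal only in the cell channel was read on 1261, 462, 1241, 546, 1 and 18 probes of replicates 1 to 6, and signal only in the reference channel on 173, 0, 301, 153, 0 and 0. Of 11544 genes with 1 probe, 53 had cell-only signal on at least 4 arrays, and 0 of these 53 had enough ratios to be tested. Among them, named after their values were seen, were mud, a spindle orientation gene of neuroblasts, spd-2, a centrosome gene, Zwilch, a kinetochore gene, the Notch target E(spl)m3-HLH and the pair-rule gene ftz. These are examples from a mixed group, which also held the germline gene bam, on 5 arrays, and vilya, hdm, tej and BomBc3. Reference-only signal on 3 arrays was read for 27 genes, among them the terminal patterning gene tll, the epithelial junction gene mesh and nompA, of the extracellular matrix of sensory organs. ftz had cell-only signal on 5 arrays. Replicates 5 and 6 held few such spots, so these counts rest mostly on the other 4 arrays.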

How the data were processed

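The authors deposited 1 column of log2 ratios per array; how spots were scanned, background-corrected and normalized is not given in the sources used here, and neither are log base and direction, which were taken as base 2 and cells over reference. Exact zeros (22.2% to 35.0% of probes) and values beyond 11 in size were set missing, each array was centred on its median (-0.12 to 0.20 before), and probes were averaged per symbol of the platform annotation (of 14569 probes, 12658 with 1 symbol, 96 with several, 1815 with none). Of 13891 rows, 8714 (7531 named genes) had at least 4 ratios, with 1 or more per dye orientation, and were tested. The test was the intercept of lmFit and eBayes (limma 3.58.1, R 4.3.3) with the dye as a balanced term, adjusted by Benjamini-Hochberg at 0.05, and treat at 2-fold, checked on simulated data. Every p-value is from this fit unless another is named. Members and gene lists were chosen with earlier results of these data known. Genes named were pros, the 5 markers, the 15 named genes of largest mean in each direction (CG genes among the 5 largest), per list up to 4 members with the smallest p, and all called members of lists with up to 6 calls; others are marked. Alternatives covered the dye term, missing values, centring, quantile normalization, probes, variance prior and arrays left out. The number of arrays limits the precision.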

Additional observations from a re-analysis of the deposited data

Results flagged for a closer look

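Of 197 gene ratios, list medians and array totals examined over the 6 arrays, 11 had an array whose gap to the nearest other array exceeded Dixon's 95% critical value of 0.625 of the range (0.710 for 5 and 0.829 for 4 values). Chance flags about 1 in 20 such groups. Replicate 5 was the outlying array in 4 cases: NHP2 (-0.35, others -1.09 to -0.85), skl (-1.49, others -0.79 to -0.38), Hsc70-3 (-0.28, others -2.13 to -1.5) and the median of the gut and yolk list (-1.84, others -3.07 to -2.76). Replicate 6 stood apart for elav (1.57, others 2.52 to 2.84) and for Doc3 (-2.96, others -6.09 to -5.13). Replicate 2 stood apart for nrv2 (-1.54, others -0.72 to -0.29) and Prp19 (1.95, others 2.28 to 2.31). The remaining cases were scrib on replicate 4 (4.36, others 1.47 to 2.36), RpS12 on replicate 3 (-3.89, others -2.62 to -1.99) and the Polycomb group median on replicate 1 (1.17, others 0.66 to 0.85). Each outlying value kept the sign of the others.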

How the results depend on the processing

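Counts over all rows stayed within 1.5 times the main count in all but 4 cases. With the cells in Cy5 only, 586 rows passed 2-fold higher and 807 lower; that fit has 3 arrays in place of 6. Rows differing between dye orientations numbered 64 with exact zeros kept and 136 with one-channel values held at 8, against 0; the cause was not tested. Leaving out 1 array gave 2610 to 2809 rows higher, 2870 to 2989 lower, 901 to 1008 past 2-fold higher, 1199 to 1295 past 2-fold lower and 0 differing by dye. The ratios of 2 named genes turned sign with the probe of most values: svp (0.131) and RpS12 (0.189). With the cells in Cy3 only, 8 named genes lost their call: mirr, Dr, hkb, PlexB, Bap60, skl, fkh and comm. With the cells in Cy5 only, 7 did: l(1)sc, emc, svp, Dr, nrv2, Asx and Diap2. Leaving arrays uncentred or quantile normalizing them moved the median of all rows by less than 0.1 (0.01 and -0.05) and the share of higher among calls to 51.1% and 48.9% from 48.8%. Omitting replicates 5 and 6, an alternative chosen after the data were seen, left 142 of 150 named genes with their direction and side of the threshold. No paired analysis was possible because the test is of 1 group against 0. Intensities were not used, so depth limits could not be set per spot.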

Other observations

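Gene families grouped by symbol, after the values were seen and so without any test, gave further contrasts in median fitted ratio (all rows -0.05). All 18 tested nucleoporin genes had ratios above 0, 16 of them above 1, with a median of 2.06 and a highest value of 3.97 for Nup154. DNA polymerase, primase and clamp loader genes had a median of 2.84 over 12 genes, all above 0 and 11 above 1, led by PolE2, a subunit gene of DNA polymerase epsilon (4.78). PolE2 did not meet the rule for naming, which asked for a call and 5 or 6 values of 1 sign. Of 14 genes of TATA-binding protein associated factors 12 lay above 0 (median 0.91), and of 22 Mediator genes 19 did (median 0.83). The 6 kinesin-like genes had a median of 1.34, with Klp61F, a mitotic motor, at 3.36.

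Other families had medians below 0. The median was -2.17 over 11 Osiris genes, of which 7 lay below -1, and -0.42 over 33 cuticle protein genes, of which 13 did. It was -1.47 over 41 P450 genes, -1.06 over 39 glutathione transferase and Ugt genes, -0.99 over 24 tetraspanin genes and -0.86 over 10 innexin and septate junction genes. Members above 0 numbered 3 of the 11 Osiris genes, 13 of the 33 cuticle protein genes, 10 of the 41 P450 genes, 9 of the 39 glutathione transferase and Ugt genes and 6 of the 24 tetraspanin genes, with the highest at 1.69 (Osi10b), 1.72 (Cpr30B), 1.82 (Cyp6u1), 2.42 (Ugt316A1) and 1.26 (Tsp5D).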
